A study of Mus musculus with 11 samples.

Results

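The genes described here are 6 genes of antibody-secreting cells: Jchain, Mzb1, Derl3, Pou2af1, Tnfrsf17 and Ccr10. They were taken by symbol from the 417 gene rows of an expression table of mouse spleen dendritic cells, and all 6 had a row. RNA was sequenced from 5 libraries of mice carrying 1 copy of a uromodulin allele in which phenylalanine replaces a cysteine (UMOD C105F/+, replicates 2 to 6). Their wild type littermates gave 6 libraries (replicates 1 to 6). Some labels number the residue differently, as C106F. It had been made in C57BL/6J embryos by Cas9 with a guide and a single-stranded donor, and all mice were killed at 12 to 16 weeks of age. Dendritic cells were enriched from collagenase-digested spleen by magnetic removal of other cells, so every library is a bulk of whatever cells the kit left. The labels give no injury, sex, day or batch for a library and do not say whether each is a separate animal. The p-values therefore describe the spread over these libraries only.

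Plasma cells are the end stage of the B cell lineage and secrete antibody in bulk from an enlarged endoplasmic reticulum. J chain is built into polymeric IgM and IgA before secretion, while chaperones and the degradation machinery of the reticulum handle the antibody chains that fold and those that do not. The spleen holds plasma cells in the cords of the red pulp, and dendritic cells are not known as a source of secreted antibody.

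The table is a selection on the contrast of these same 2 groups, since its smallest absolute fold was 2.0009 and its largest unadjusted p was 0.0493. Every one of the 6 genes was therefore bound to show a difference, and no p-value between the groups below is independent evidence. Reads summed over the 417 rows were fewest in wild type 1 (195414) and most in C105F/+ 2 (1198500). Depth is given by the size factors behind the authors' mean column, which ran from 0.615 to 1.98 in the same libraries. A scaled count below is a read count divided by its library's size factor. Umod has no row, so the genotype was not checked here, and of 21 listed dendritic cell markers only Itgae and Pacsin1 have one. A pair of libraries stood apart in the genes described here: C105F/+ 3 had low values of nearly all of them, and wild type 4 had some high and some low. Folds of the 6 genes are given with and without these libraries, as are some of the ratios and correlations.

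Promoters are shown for 3 of the genes as a description of sequence, the reticulum stress response being a known control of secretory genes. Whether that response had a part in the levels here was not tested. The sequences are from RefSeq (GRCm38.p6, the assembly also called mm10), which held 4 of the 6 genes: Jchain, Pou2af1, Derl3 and Tnfrsf17. Each runs 5′ to 3′ on the gene's strand from 250 bases before to 50 after the start site in the RefSeq promoter table. The Tnfrsf17 window, chr16:11313559-11313858, lies inside the bounds given for that gene below, so it is not the sequence before the gene's first base. Capitals mark a match to the endoplasmic reticulum stress element in Derl3 (CCAAT, 9 bases of any kind, CCACG), there on the opposite strand, and to the unfolded protein response element TGACGTGG in Pou2af1. The Jchain and Tnfrsf17 windows hold neither, and that of Jchain is shown because this gene carries the largest difference.
Derl3, chr10:75893148-75893447, plus strand: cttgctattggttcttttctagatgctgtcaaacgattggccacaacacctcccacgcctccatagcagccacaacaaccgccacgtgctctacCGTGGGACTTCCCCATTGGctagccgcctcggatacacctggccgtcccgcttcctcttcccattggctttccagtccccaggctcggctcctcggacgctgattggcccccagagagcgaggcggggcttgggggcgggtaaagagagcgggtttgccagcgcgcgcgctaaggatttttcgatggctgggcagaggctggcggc
Pou2af1, chr9:51213440-51213739, plus strand: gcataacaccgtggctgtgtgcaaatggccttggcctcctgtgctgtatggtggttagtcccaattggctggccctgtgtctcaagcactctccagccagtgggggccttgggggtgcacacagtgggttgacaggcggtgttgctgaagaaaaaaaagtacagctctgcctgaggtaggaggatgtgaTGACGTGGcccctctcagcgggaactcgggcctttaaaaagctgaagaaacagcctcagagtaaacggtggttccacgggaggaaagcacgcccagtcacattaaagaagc
Jchain, chr5:88527848-88528147, minus strand: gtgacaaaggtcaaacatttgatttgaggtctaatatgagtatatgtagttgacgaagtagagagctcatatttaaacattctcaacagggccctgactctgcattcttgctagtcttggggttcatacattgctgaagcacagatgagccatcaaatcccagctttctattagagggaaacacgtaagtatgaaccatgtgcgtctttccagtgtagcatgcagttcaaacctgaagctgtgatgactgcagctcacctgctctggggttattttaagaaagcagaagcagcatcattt

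Both strands of each window were searched for 5 motifs. Of all 32851 promoter windows of the same length, the stress element was found in 0.119% and TGACGTGG in 0.676%. The stress element of Derl3 spans bases 95 to 113 of its window, and the element of Pou2af1 spans bases 190 to 197. CCACG, the 3′ end of the stress element, was found 3 times each in Derl3 and Pou2af1, once inside the longer match in either gene, and not in Jchain or Tnfrsf17, against 32.8% of all windows. CTTTC, the core bound by the plasma cell repressor Blimp-1, was found 5 times in Tnfrsf17, 3 times in Jchain and once each in Derl3 and Pou2af1, and 57.3% of all windows hold it. The octamer ATGCAAAT, to which the Oct factors that OCA-B assists bind, was in none of the 4 windows and in 1.74% of all. These matches describe letters in a window and not binding.

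Jchain was by far the highest of the 6 genes per transcript length in both groups. Its FPKM, the authors' fragment count per transcript length and library size, was 155 ± 34.7 in wild type (SD, n = 6) and 1318 ± 770 in C105F/+ (SD, n = 5). Mzb1, a chaperone of antibody assembly in the reticulum, followed with 16.6 ± 6.41 FPKM in wild type and 56.1 ± 32.0 in C105F/+. Every wild type library had Jchain above Mzb1 and Mzb1 above each of the remaining 4 genes.

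Of the 4 lower genes, Ccr10 had the lowest FPKM in all 11 libraries. Pou2af1 was above Derl3 and Derl3 above Tnfrsf17 in each of C105F/+ 2, 4, 5 and 6, an order that the medians of wild type do not follow. Median FPKM in wild type was 2.70 for Derl3, 1.42 for Tnfrsf17, 1.41 for Pou2af1 and 0.243 for Ccr10. The wild type ranges of Derl3 (1.11 to 4.06), Tnfrsf17 (0.185 to 1.98) and Pou2af1 (1.24 to 11.7) overlap, the 11.7 being wild type 4. Within a library, Derl3 was above Tnfrsf17 in every wild type library but wild type 1 (1.11 against 1.18). In C105F/+ the medians were 19.1 for Pou2af1, 11.1 for Derl3, 7.79 for Tnfrsf17 and 2.12 for Ccr10, and the ranges over libraries overlapped between neighbours here too.

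**Figure D1:**
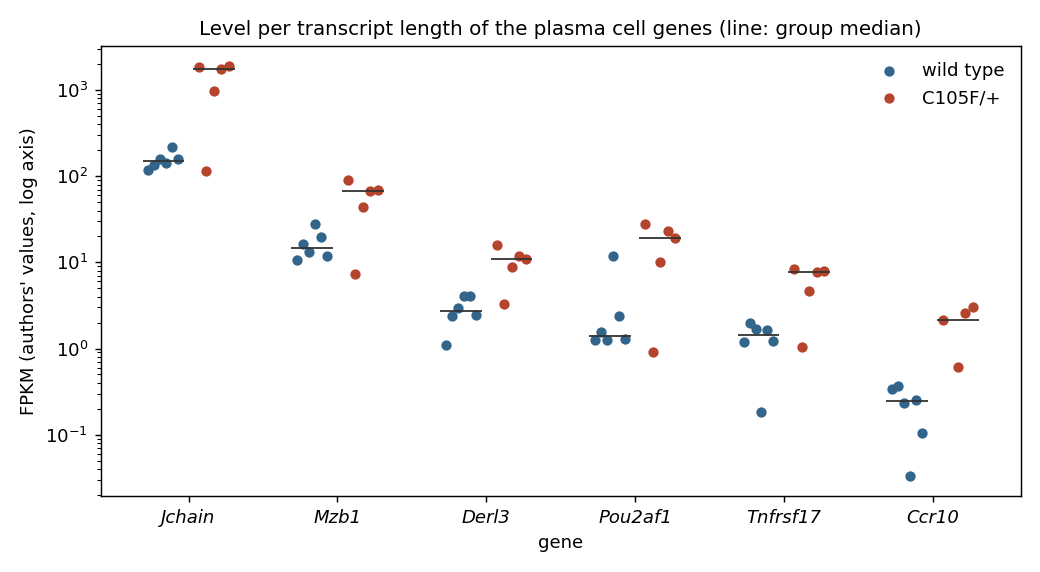
FPKM of the 6 genes on a log axis, 1 point per library, wild type (n = 6) in blue and C105F/+ (n = 5) in red, with the group median as a line. Jchain lies above all other genes in both groups, and Ccr10, listed at 0 in C105F/+ 3 and not drawn there, has the lowest median.

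Across the 2 groups the 6 genes behaved alike in outline. In 4 of the 5 C105F/+ libraries they stood above every wild type library, except for Pou2af1 in C105F/+ 4. In C105F/+ 3 they lay within or below the wild type range. By edgeR's quasi-likelihood test on the whole table, with Benjamini-Hochberg adjustment over 322 tested rows, 6 of 6 had an adjusted p under 0.05 and were higher in C105F/+. Of all tested rows 74.5% were called in either direction and 52.5% were called higher (169 higher and 71 lower). The 169 were among 210 rows with a positive fold change, so the count says little about these genes. That split moves with the scaling, to 8 higher and 106 lower with TMM factors from the table's rows and to 12 and 91 with median-of-ratios factors from them. Limma on log2(FPKM + 0.1), which changes the test as well as the scaling, called 187 higher and 31 lower. The members' median log2 fold change was 2.07, beside 1.11 over all tested rows. In the authors' deposited table, adjusted over more genes than the table holds, 4 of the 6 had an adjusted p under 0.05, against 21.1% of all rows called higher there. Of the 417 rows 122 carry no adjusted p and 164 are listed as lower, so that share is low for rows such as these. In none of the 6 did all C105F/+ libraries lie above all wild type libraries, a separation found in 42 of the 417 rows (10.1%). In 5 of the 6, all but Pou2af1, at least 4 C105F/+ libraries did so, against 160 of the 417 rows (38.4%). Only the 253 rows that the authors list as higher could show either, so both shares understate how common it was among such rows. Bulk RNA does not tell more cells that carry these RNAs apart from more RNA per cell. Which cells of the libraries carried them was not tested.

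**Figure D2:**
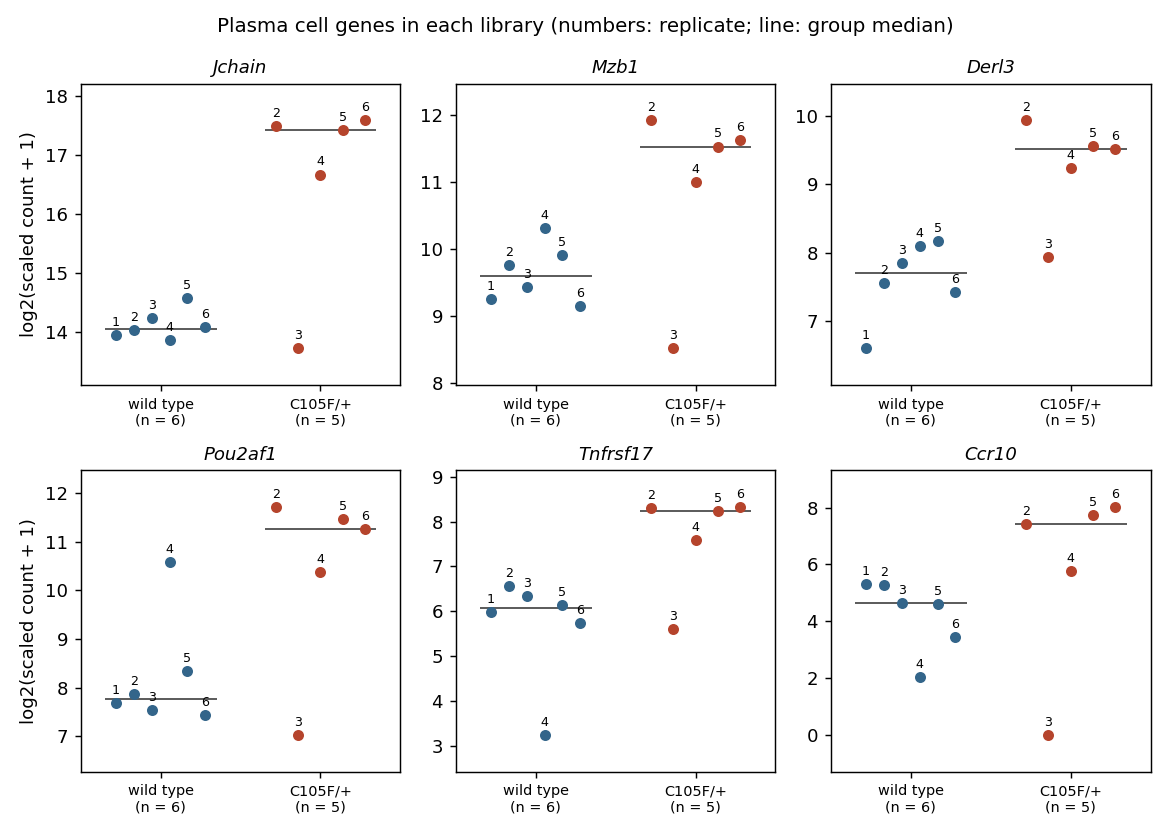
log2(scaled count + 1) of each gene, 1 point per library with its replicate number, and the group median as a line. C105F/+ 2, 4, 5 and 6 lie above every wild type library except for Pou2af1 in C105F/+ 4, while C105F/+ 3 lies within or below the wild type range and wild type 4 stands apart for Pou2af1 and Tnfrsf17.

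Among the products of the secretory cell, Jchain (Entrez 16069, chromosome 5, 88519809 to 88527897, minus strand) showed the widest gap. Scaled counts in C105F/+ 2, 4, 5 and 6 were 183612, 103802, 175207 and 196308, and C105F/+ 3 had 13489. Wild type 1 to 6 had 15768, 16757, 19343, 14972, 24371 and 17276. The 4 high C105F/+ libraries were thus far above every wild type library, and C105F/+ 3 was below all 6. The log2 fold change was 2.89 (SE 0.55, edgeR adjusted p = 0.0136), with 4.58e-06 in the authors' deposited table, and the exact two-sided permutation p over libraries was 0.0152. The fold of the group means went from 7.44 to 9.11 without C105F/+ 3 and to 7.19 without wild type 4. Wild type libraries were close to each other, with a coefficient of variation of 18.9%, against 57.0% in C105F/+.

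Mzb1 (Entrez 69816, chromosome 18, 35647265 to 35650266, minus strand) acts as a co-chaperone in the assembly of IgM. Its scaled counts were 3862, 2034, 2943 and 3137 in C105F/+ 2, 4, 5 and 6, and 365 in C105F/+ 3. In wild type 1 to 6 they were 612, 862, 693, 1271, 956 and 565. Wild type 4 was the highest of its group, and C105F/+ 3 was below every wild type library. The log2 fold change was 1.58 (SE 0.47, edgeR adjusted p = 0.0295), and the exact permutation p was 0.0628. The authors' deposited table gives it an adjusted p of 0.0258. Its fold of the group means was 2.99, with 3.62 without C105F/+ 3 and 3.35 without wild type 4.

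Derl3 (Entrez 70377, chromosome 10, 75893398 to 75895941, plus strand) encodes a derlin, a membrane protein through which misfolded proteins leave the reticulum for degradation. C105F/+ 2, 4, 5 and 6 had 981, 604, 753 and 733 scaled counts, and C105F/+ 3 had 245. Wild type 1 to 6 had 96.0, 188, 229, 274, 288 and 170.3. It was the gene in which C105F/+ 3 kept closest to its group, above 4 of the 6 wild type libraries. The log2 fold change was 1.67 (SE 0.40, edgeR adjusted p = 0.0206). The exact permutation p was 0.0065, and the adjusted p in the authors' deposited table was 0.00163. Group means differed 3.19-fold, 3.70-fold without C105F/+ 3 and 3.41-fold without wild type 4.

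The coactivator Pou2af1, also called OCA-B, assists Oct factors at immunoglobulin promoters and is present in B cells as well as plasma cells (Entrez 18985, chromosome 9, 51213690 to 51240079, plus strand). Its scaled counts in C105F/+ 2, 4, 5 and 6 were 3354, 1319.9, 2828 and 2433, with 129 in C105F/+ 3. Wild type 1, 2, 3, 5 and 6 had 205, 231, 186, 325 and 171, but wild type 4 had 1523. That library lay within the C105F/+ range, above C105F/+ 4 and 7.43 times the median of the other wild type libraries. The log2 fold change of 2.19 (SE 0.72, edgeR adjusted p = 0.0295, exact permutation p = 0.0541) became 3.17 without wild type 4 (edgeR adjusted p = 0.00429). The fold of the group means went from 4.57 to 8.99 without wild type 4 and to 11.1 without C105F/+ 3 as well. Its adjusted p was 0.0575 according to the authors' deposited table.

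Of the receptor genes, Tnfrsf17 encodes BCMA, the receptor through which APRIL keeps plasma cells alive (Entrez 21935, chromosome 16, 11313232 to 11320074, plus strand). C105F/+ 2, 4, 5 and 6 had 316, 192, 303 and 321 scaled counts, and C105F/+ 3 had 47.4. Wild type 1 to 6 had 61.8, 94.1, 79.4, 8.38, 69.9 and 52.0. Wild type 4 was here the lowest library of all, from 8 reads, whose 95% Poisson interval of 3.45 to 15.8 reads covers counting error only. The log2 fold change was 1.95 (SE 0.57, edgeR adjusted p = 0.0293). By exact permutation p was 0.0281, and the adjusted p of the authors' deposited table was 0.0239. The fold of the group means rose from 3.87 to 4.64 without C105F/+ 3 and fell to 3.30 without wild type 4.

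Ccr10 encodes the receptor for CCL27 and CCL28, by which IgA plasma cells reach mucosal tissue (Entrez 12777, chromosome 11, 101172998 to 101175443, minus strand). Scaled counts were 171, 53.4, 214 and 259 in C105F/+ 2, 4, 5 and 6. C105F/+ 3 had no read and was taken as 0 in the group mean and in the permutation test. A floor of 3 reads, given only for scale, corresponds to 2.85 scaled counts in that library. Wild type 1 to 6 had 39.0, 37.5, 24.2, 3.14, 23.6 and 9.86, the value of wild type 4 resting on 3 reads (95% Poisson interval 0.619 to 8.77). The 2 lowest libraries thus belonged to different groups. The log2 fold change was 2.61 (SE 0.92, edgeR adjusted p = 0.0322), but the exact permutation p was 0.312. The authors' deposited table gives an adjusted p of 0.0848. Its fold of the group means, 6.10, rose to 7.62 without C105F/+ 3 and fell to 5.20 without wild type 4.

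By exact permutation 3 of the 6 genes had an unadjusted p under 0.05, namely Derl3, Jchain and Tnfrsf17. Of all 417 rows 190 (45.6%) were higher with such a p, while the authors list 253 as higher. The 3 of 6 thus do not stand out among higher rows. With either scaling taken from the table's own rows only Jchain stayed called (edgeR adjusted p = 0.0143 with TMM and 0.0264 with median-of-ratios), since these scalings lower the median of all rows by 0.96 and 0.75 on the log2 scale. Relative to that median, Jchain was 1.78 above it as reported and 1.65 and 1.64 under the 2 scalings. Without C105F/+ 2 or without C105F/+ 5 again only Jchain passed (edgeR adjusted p = 0.0225 and 0.0233), and without C105F/+ 6 Jchain and Derl3 (0.0249 and 0.0484). The adjusted p of the others in these fits lay between 0.0505 and 0.0741.

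Ratios of 2 genes within a library do not depend on scaling between libraries, and that of Jchain to Mzb1 did not overlap between the groups. Reads of Jchain per read of Mzb1 were 47.5, 36.9, 51.0, 59.5 and 62.6 in C105F/+ 2 to 6. Wild type 1 to 6 had 25.8, 19.4, 27.9, 11.8, 25.5 and 30.6. All 5 C105F/+ libraries, C105F/+ 3 included, lay above all 6 wild type libraries. The ratio was 2.26-fold higher in C105F/+ by geometric means. Its exact permutation p of 0.0022 is the smallest that 462 assignments can give, and the Benjamini-Hochberg adjusted p over the ratios of Jchain to all 321 other tested rows was 0.0347. By limma on the same log2 ratios the adjusted p was 0.0763, and 0.211 with the replicate number as a block. Without C105F/+ 3 the exact permutation adjusted p was 0.00873, and without any 1 of the other 10 libraries it was 0.0665 to 0.0965. Jchain was called higher relative to 1 of the 5 other members, Mzb1, and relative to 31.8% of the 321 rows.

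For the other 4 genes the ratio to Jchain overlapped between groups and was not called. Adjusted p by exact permutation was 0.150 for Derl3, 0.477 for Tnfrsf17, 0.454 for Ccr10 and 0.908 for Pou2af1. Without C105F/+ 3 the ratio to Derl3 passed as well (adjusted p = 0.0158, exact permutation). Jchain per Pou2af1 had medians of 78.6 in C105F/+ and 75.9 in wild type, with ranges of 54.7 to 104.6 and 9.83 to 103.8. Without wild type 4, the library at 9.83, the wild type range was 72.4 to 103.8 and the log2 difference turned from 0.33 to -0.19. The log2 difference for Tnfrsf17 went from 0.50 to 0.94 without wild type 4, and to 1.15 without both C105F/+ 3 and wild type 4 (adjusted p = 0.0120, exact permutation). Jchain per Tnfrsf17 lay between 541.6 and 612 in C105F/+ 2, 4, 5 and 6, a narrow band above 5 of the 6 wild type libraries (178 to 348). C105F/+ 3, with 284, lay among those 5, and wild type 4 had 1787.

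**Figure D3:**
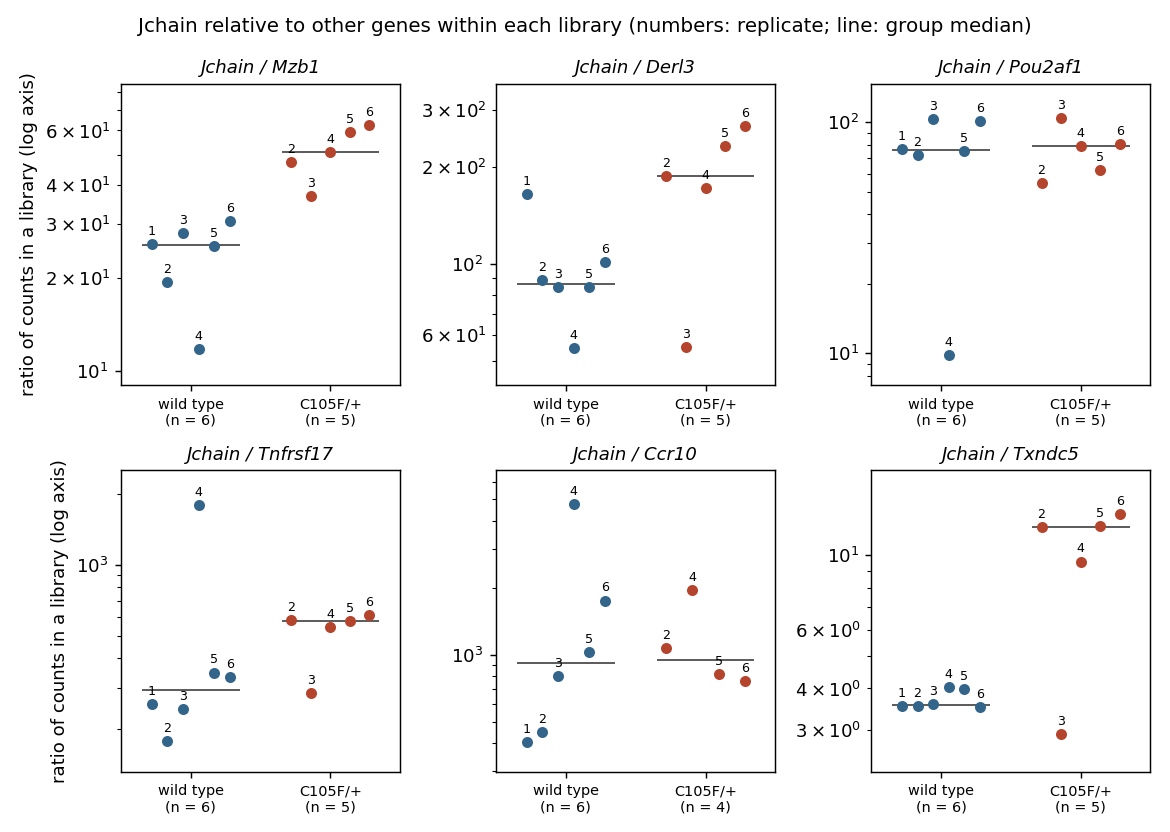
Reads of Jchain per read of another gene in each library, on a log axis, with replicate numbers and the group median as a line. For Mzb1 the groups do not overlap, for Txndc5 the wild type libraries lie close together at 3.53 to 4.03, and C105F/+ 3 is missing for Ccr10, where it had no read.

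Other genes of plasma cells and of antibody secretion were largely without a row. Of 63 further genes listed, 6 had one: Sdc1, Txndc5, Eaf2, Oosp1, Tram2 and Prg2. The immunoglobulin constant genes, Prdm1, Xbp1 and Irf4 stand in that list and had no row. A listed gene has a row only if it passed the fold and p cut on this contrast. All 6 rows were called higher by edgeR, 4 of them also in the authors' deposited table, with a median log2 fold change of 1.55. Over all rows these shares were 52.5% and 21.1%, and the median was 1.11. Of the 210 tested rows with a positive fold change 169 were called higher, and the cut on this contrast made such calls likely in advance. Txndc5, a disulfide isomerase of the reticulum, had 15134, 10839, 14343 and 14770 scaled counts in C105F/+ 2, 4, 5 and 6, and 4619 in C105F/+ 3. Its wild type libraries ran from 3712 to 6135, so C105F/+ 3 lay inside that range and the others above it. Reads of Jchain per read of Txndc5 were 9.58 to 13.3 in C105F/+ 2, 4, 5 and 6, 2.92 in C105F/+ 3 and between 3.53 and 4.03 in every wild type library (exact permutation adjusted p = 0.0477). The ratio was thus above wild type in the 4 libraries with high Jchain and below it in the fifth.

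Sdc1, the syndecan by which plasma cells are usually recognised, had 1464, 1142, 1500.3 and 1487 scaled counts in C105F/+ 2, 4, 5 and 6 and 333 in C105F/+ 3. Wild type 4 had 1290.2, within the range of the high C105F/+ libraries, and the other wild type libraries had 196 to 303. Wild type 4 was high here as it was for Pou2af1. Eaf2, a partner of the elongation factor ELL, ran from 143 to 296 scaled counts in the 4 high C105F/+ libraries and from 42.1 to 95.2 in wild type, with 39.8 in C105F/+ 3. Oosp1 ran from 101 to 172 in these 4 and from 0 to 27.8 in wild type, and Tram2, which takes part in moving new chains into the reticulum, from 140.5 to 309 and from 22.1 to 111. C105F/+ 3 had 14.2 of Oosp1, within the wild type range, and 15.2 of Tram2, below it. Prg2, the eosinophil major basic protein, stands in the eosinophil list as well, and its scaled counts were 260.2 to 1104 in wild type, 1429.9 to 6317 in the 4 high C105F/+ libraries and 321 in C105F/+ 3. C105F/+ 2, 5 and 6 were above every wild type library in 6 of 6 members and 6 of 6 further genes, and C105F/+ 4 in 5 of 6 of each. Of the 253 rows that the authors list as higher, 93.3%, 96% and 92.1% were above every wild type library in C105F/+ 2, 5 and 6, and 60.9% in C105F/+ 4, so the counts in the first 3 of these libraries lie near the background. C105F/+ 3 was above in 0 of 6 and 0 of 6, whereas it was above every wild type library in 33.2% of the 253 rows.

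B cell markers stood high in C105F/+ 2, 5 and 6, as did the plasma cell genes and most rows listed as higher. In C105F/+ 4 most B cell markers were not above every wild type library. Of 22 listed markers 8 had a row (Ms4a1, Cd79a, Cr2, Fcer2a, Ebf1, Vpreb3, Fcrla and Cd55). All 8 were called higher by edgeR (median log2 fold change 1.71), beside 52.5% of all tested rows and a median of 1.11. Of the 210 tested rows with a positive fold change 169 were called higher. All 8 were above every wild type library in C105F/+ 2, 5 and 6, but only Fcer2a and Fcrla in C105F/+ 4, and only Cr2 in C105F/+ 3. Of the 253 rows that the authors list as higher, 93.3%, 96% and 92.1% were so in C105F/+ 2, 5 and 6. In C105F/+ 4 and 3 these shares were 60.9% and 33.2%. The 8 of 8 thus lie near the background. The summed scaled counts of the 8 were 10766, 2970, 9333 and 8679 in C105F/+ 2, 4, 5 and 6. C105F/+ 3 had 2178, and wild type ran from 1622 to 4475, the highest being wild type 4. In C105F/+ 4, Ms4a1, the gene of CD20, had 571 scaled counts within the wild type range of 544 to 841, and Cr2, the complement receptor of follicular and marginal zone B cells, had 151 against 104 to 178. Cd79a had 800 scaled counts in C105F/+ 4 and Vpreb3 had 37.0, each above every wild type library except wild type 4. C105F/+ 4 had 103802 of Jchain. In wild type 4, Cd79a, a signalling chain of the B cell receptor, had 2041 scaled counts, against 207 to 530.3 in the rest of its group. None of the 8 markers was at 0 in any library, and their part in the levels of the members was not tested.

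**Figure D4:**
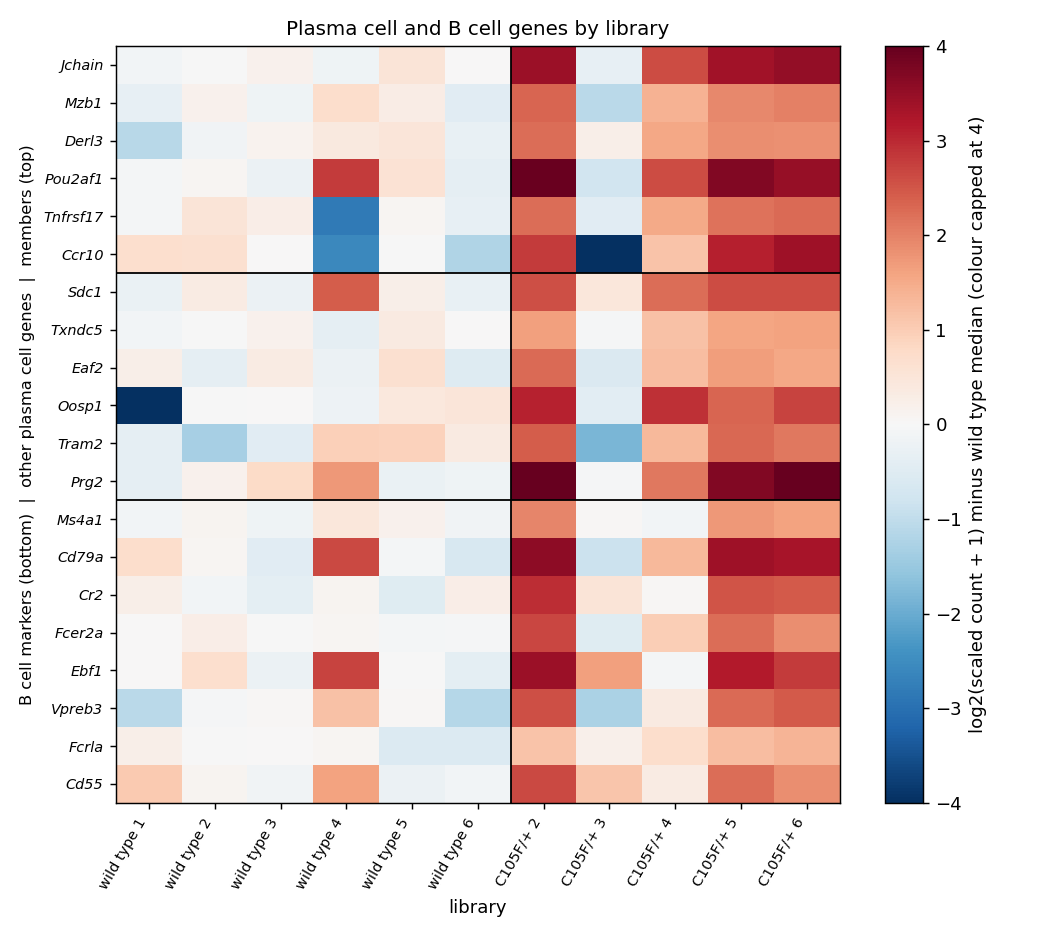
Difference of log2(scaled count + 1) from the wild type median for the 6 genes (top), 6 further plasma cell genes (middle) and 8 B cell markers (bottom), by library, red for higher and blue for lower, capped at 4. In C105F/+ 4 the plasma cell genes are red and most B cell markers pale, in C105F/+ 3 most rows are pale or blue, and in wild type 4 Pou2af1, Sdc1, Cd79a and Ebf1 are red while Tnfrsf17 and Ccr10 are blue.

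The called counts of markers of other cells that follow stand beside the same 52.5% of all tested rows called higher, and 169 of the 210 with a positive fold change. All 4 T cell rows (Cd28, Cd2, Ctla4 and Bcl11b) of 24 genes listed were called higher by edgeR, and their summed scaled counts were 155 to 227 in wild type, 250.4 in C105F/+ 3 and 448.7 to 1351 in C105F/+ 2, 4, 5 and 6. Of the 15 NK cell genes 4 had rows (Ncr1, Prf1, Eomes and Il2rb) and 2 of 3 tested were called higher, with sums of 38.9 to 905 in C105F/+ and 43.0 to 262 in wild type. Of these, Ncr1 was at 0 in 5 of the 6 wild type libraries and in C105F/+ 3. Of 15 neutrophil genes 5 had rows (Retnlg, Csf3r, Cxcr2, G0s2 and Mpo) and 4 were called higher, with sums of 1152 to 28216 and 1014 to 7603, the 1152 being C105F/+ 4. Of 16 genes of eosinophils, basophils and mast cells 4 had rows (Prg2, Ear1, Ear6 and Mcpt1), 3 called higher and 1 lower, with sums of 375 to 8372 and 340.4 to 1284. Of 13 erythroid and platelet genes 3 had rows (Alas2, Sptb and Ppbp) and 2 were called higher, with sums of 516 to 4302 and 212 to 1441. Itgae and Pacsin1, the dendritic cell rows, summed to 1454 to 4885 in C105F/+ and to 1079 to 1471 in wild type 1, 2, 3, 5 and 6, with 168 in wild type 4. Whether these markers account for any part of the members' levels was not tested.

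Within the groups, the genes did not all follow each other. After the group mean was taken from each log2 value, the correlation over the 11 libraries was 0.94 between Mzb1 and Pou2af1, 0.93 between Jchain and Ccr10, and 0.92 between Jchain and Mzb1. Without C105F/+ 3 and wild type 4 the pair of Jchain and Ccr10 fell to 0.55 and that of Jchain and Mzb1 was 0.79. The correlation was 0.14 between Pou2af1 and Tnfrsf17, which wild type 4 pulled in opposite directions, and 0.67 for that pair without both. Between Mzb1 and Pou2af1 it was 0.92 without both. These are descriptions, over libraries that share one table and its scaling.

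Among the other 321 tested rows, those most like each gene by the same measure were named by a fixed rule. Jchain was closest to Txndc5 (correlation 0.98, and 0.98 without C105F/+ 3 and wild type 4), Cmah (0.94, and 0.65) and Ccr10 (0.93, and 0.55). Mzb1 was closest to Pou2af1, Tmem154 (0.94, and 0.49) and Syne3 (0.93, and 0.43). Derl3 was closest to Pls1 (0.94, and 0.86), Prf1 (0.89, and 0.81) and Fam46c (0.88, and 0.86). Pou2af1 was closest to Lax1 (0.97, and 0.77), Ckap4 (0.97, and 0.70) and Tmem154 (0.96, and 0.47). Rows close to Tnfrsf17 included Bmx (0.95, and 0.88) and Mctp2 (0.95, and 0.60). Ccr10 was closest to Txndc5 (0.93, and 0.42), Jakmip1 (0.93, and 0.69) and Itgal (0.93, and 0.72). The likeness of Jchain with Txndc5 and that of Mzb1 with Pou2af1 thus held without the 2 libraries, while several others rested on them.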

How the data were processed

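The deposited table gives unnormalized read counts per gene, per its headers. It also holds, as made by the authors, FPKM, normalized values on a log2 scale, a mean signal per gene, a signed fold score, its log2 standard error and the unadjusted and adjusted p-value. The submitters' processing notes name the build mm10 and, without settings, DESeq2, StringTie 2.1.3b, Bowtie2 2.3.4.1, HISAT2 2.1.0, Trimmomatic 0.38 and FastQC 0.11.7. Libraries were directional and oligo(dT)-selected, per the labels' protocols, and the sources used here do not give how strand entered the counting.

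Size factors were recovered by least squares from the counts and the deposited mean (largest relative error 4.66e-15). The count test was edgeR 4.0.16 under R 4.3.3, with group as the only term and filterByExpr, which left 322 of 417 rows. Exact two-sided permutation tests used log2(scaled count + 1) over 462 assignments. Alternatives used DESeq2 1.42.0, limma 3.58.1, other scalings and left-out libraries. Each test was first tested on simulated data. A ratio of Jchain to every other tested row was adjusted over 321 rows. Named genes were the 6 members, the 3 rows most like each by correlation, and listed genes with a row; 1 row that this rule names is not reported here. The members, the 8 lists and the tests were chosen with earlier results of these data known. Poisson intervals cover counting error only.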

Additional observations from a re-analysis of the deposited data

Results flagged for a closer look

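In 11 of 22 sets of values a single library lay far from the rest of its group by Dixon's gap test at its 95% critical value, which chance flags in about 1 of 20 sets. The 22 sets, which share genes and libraries, are the 6 genes and the 5 ratios to Jchain in each group. All 11 flags fell on C105F/+ 3 or wild type 4.

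On the log2(scaled count + 1) scale, C105F/+ 3 was low for Jchain (13.72, against 16.66 to 17.58 in the other C105F/+ libraries), Mzb1 (8.52, against 10.99 to 11.92), Pou2af1 (7.02, against 10.37 to 11.71), Tnfrsf17 (5.60, against 7.59 to 8.33) and Ccr10 (0, against 5.76 to 8.02). Its log2 ratio of Jchain to Derl3 was 5.78 (others 7.42 to 8.06) and that of Jchain to Tnfrsf17 was 8.12 (others 9.07 to 9.25).

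Wild type 4 was high for Pou2af1 (10.57, against 7.43 to 8.35 in the rest of its group) and low for Tnfrsf17 (3.23, against 5.73 to 6.57). Its log2 ratio of Jchain to Pou2af1 was 3.30 (others 6.17 to 6.69) and that of Jchain to Tnfrsf17 was 10.64 (others 7.46 to 8.42).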

How the results depend on the processing

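All 6 genes were higher in C105F/+ under each of the 21 alternatives. The count of genes called higher, 6 of 6, became 1 with TMM and 1 with median-of-ratios scaling on the table's rows, 2 by exact permutation, and 1 to 6 without 1 library. The 240 called rows became 114 with TMM, 103 with median-of-ratios, 377 by DESeq2, and 11 to 280 without 1 library. Same-numbered libraries did not deviate together (correlations of -0.13 to 0.20, 1 of 5 numbers best with its own). With only 5 numbers, and no pairing given in the labels, this cannot decide whether the replicate number is a pairing. With the replicate number as a block edgeR called 0 members and 0 rows (5 members and 166 rows at an unadjusted p under 0.05).

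Jchain was called higher relative to 102 rows, to 112 with limma and the replicate block, to 229 without C105F/+ 3, to 0 without any 1 of the other 10 libraries, and to 254 without both C105F/+ 3 and wild type 4, an alternative chosen after seeing the data. With 10 libraries, 131 to 240 rows had an unadjusted p under 0.05, beside 167 with all 11, and fewer libraries raise the smallest p that permutations allow. The log2 ratio of Jchain to Pou2af1 ran from -0.19 (without wild type 4) to 0.49 without 1 library, and was -0.31 without both. The size factors of C105F/+ 3 (1.05) and wild type 4 (0.955) lie within those of the others, and counts as low as 0 and 3 reads of Ccr10 carry wide counting intervals.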
